A study of Mus musculus with 13 samples.

Results

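Esrrg, Pdk4 and 8 genes of fatty acid oxidation (Esrra, Acot1, Acot2, Cpt1a, Cpt2, Acadm, Acadl and Hadha) were followed through 13 RNA-seq libraries of mouse alveolar macrophages, which patrol the airspaces and clear inhaled material. All 10 were among the 43430 genes of the deposited count table, and all 10 passed the filter on low counts, as did 11906 genes in all. Esrrg and Pdk4 were chosen by their measured fall with particulate matter in these libraries, so their PM values are a description and carry no test. The other 8 were listed for their role, although the falls of Acot1 and Acot2 with PM were already known when the list was drawn up.

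All animals were male C57Bl/6 mice aged 10 weeks, in a layout of 2 instillates by 2 drinking-water treatments. Treated animals drank metformin, a biguanide prescribed for type 2 diabetes, at 100 mg/kg/day, starting 24 h ahead of the instillation. The instillate, placed in the trachea, was 10 µg of a reference particulate matter (PM) from NIST or PBS, and the macrophages were sorted by flow cytometry 24 h later. The groups were metformin and PM with 3 libraries, metformin and PBS with 3, vehicle and PM with 3, and vehicle and PBS, the animals given neither agent, with 4. A library is named by its group and its title number. The design text calls them biological replicates and says no more of how they were obtained, so p-values measure the spread between these samples.

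Mitochondrial fatty acid oxidation breaks fatty acids down to acetyl-CoA. Long chains enter the mitochondrion through the carnitine shuttle, are shortened by acyl-CoA dehydrogenases and the trifunctional protein, and can be freed again from coenzyme A by thioesterases. ERRα (Esrra) and ERRγ (Esrrg) are orphan nuclear receptors that bind an extended AGGTCA motif and drive genes of oxidative metabolism, best known from heart, muscle and brown fat. Pdk4 phosphorylates and switches off the pyruvate dehydrogenase complex, which keeps pyruvate out of the tricarboxylic acid cycle while fat is burned, and its transcription is a known target of PPARs, FOXO factors and ERRs. Alveolar macrophages live in lipid-rich surfactant and depend on PPARγ for their identity.

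The libraries held 5.567 to 8.101 megacounts (M) assigned to genes. The 12 alveolar macrophage markers examined, among them Siglecf, Marco and Car4, were all tested and summed to 23300 to 29300 CPM (counts per 1 M counts of a library, after scaling) over the libraries. In each arm 7 of these 12 were called with PM (adjusted p under 0.05), 4 higher and 3 lower with metformin and 3 higher and 4 lower with vehicle, where 12.8% and 4.85% of all tested genes were called. Over the 12, log2 fold changes with PM ran from -0.471 to 1.44 with metformin (median 0.0485). With vehicle they ran from -0.56 to 1.11 (median 0.00161). Car4 and Marco were among the markers that rose. They do not stand for the 12, of which 3 were called lower with metformin and 4 with vehicle. Car4 was at 679 to 843 CPM with metformin and PM against 335 to 401 with metformin and PBS, and at 810 to 1040 CPM with vehicle and PM against 394 to 464 with vehicle and PBS. Marco was at 415 to 536 CPM against 135 to 198 with metformin, and at 434 to 718 CPM against 261 to 431 with vehicle, PM against PBS. The 10 neutrophil markers summed to 34.6 to 42.3 CPM with metformin and PM against 40.4 to 46.2 with metformin and PBS. With vehicle they summed to 26.3 to 33.3 CPM with PM against 36.9 to 44.8 with PBS. Of these 10, 3 were tested, and edgeR's quasi-likelihood test called none with PM in either arm. With vehicle 2 of them had an unadjusted p under 0.05. Retnlg, Ly6g and Camp had no count in any library. The 8 markers of fat and heart muscle, tissues rich in several of the genes followed here, summed to 1.87 to 5.18 CPM, with Lep and Myh6 at 0. Summed monocyte markers were higher with PM. They stood at 2810 to 3230 CPM with metformin and PM against 2350 to 2910 with metformin and PBS, and at 2750 to 3740 CPM with vehicle and PM against 1930 to 2340 with vehicle and PBS. Of the 12 monocyte markers 7 were tested, of which 4 were called higher with metformin and 5 with vehicle, whereas Ly6c2 had 5 counts over all libraries. The 8 lymphocyte markers summed to 2.65 to 8.56 CPM against 0.924 to 2.07 with metformin, and to 2.6 to 8.09 CPM against 1.27 to 2.2 with vehicle, PM against PBS. Summed endothelial and fibroblast markers were 161 to 181 CPM against 128 to 129 with metformin, and 154 to 197 CPM against 125 to 155 with vehicle, in the same order. Of these 8, all tested, 5 were called higher with PM under metformin and 1 under vehicle. Metformin against vehicle called 3 of them higher in PM animals, where 4.08% of all tested genes were called higher, and 0 in PBS animals. Of the lymphocyte markers 2 were tested, and both were called higher with PM in each arm. The 8 epithelial markers summed to 253 to 289 CPM against 235 to 285 with metformin and to 224 to 265 CPM against 229 to 277 with vehicle. With metformin 4 of the 7 tested were called, the surfactant genes Sftpc, Sftpb and Sftpa1 higher and Epcam lower, and with vehicle edgeR's quasi-likelihood test called none, with 3 at an unadjusted p under 0.05. The part of these markers and cells in the results was not tested, and in bulk RNA a smaller share of cells that hold a transcript and less of it per cell cannot be told apart.

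The promoters of 5 of the genes are shown, 3 for their lower level with PM and 2 for a motif match. Pdk4, Acot1 and Acot2 were lower with PM, and Cpt1a and Acadm were the members with an AGGTCA motif in the window searched. The sequences are the 250 bases before the RefSeq transcription start on GRCm38.p6, in the direction of transcription, with AGGTCA or its complement TGACCT in capitals (and the further base of AAGGTCA where present). Pdk4 is at chr6:5496279-5496528 on the minus strand, Acot1 at chr12:84009252-84009501 on the plus strand, Acot2 at chr12:83987611-83987860 on the plus strand, Cpt1a at chr19:3323051-3323300 on the plus strand and Acadm at chr3:153944644-153944893 on the minus strand.
Pdk4: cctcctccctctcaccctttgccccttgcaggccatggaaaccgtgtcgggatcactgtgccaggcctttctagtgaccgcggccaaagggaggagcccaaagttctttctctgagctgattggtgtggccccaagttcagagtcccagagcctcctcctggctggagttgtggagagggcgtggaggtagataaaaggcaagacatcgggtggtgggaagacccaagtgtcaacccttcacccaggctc
Acot1: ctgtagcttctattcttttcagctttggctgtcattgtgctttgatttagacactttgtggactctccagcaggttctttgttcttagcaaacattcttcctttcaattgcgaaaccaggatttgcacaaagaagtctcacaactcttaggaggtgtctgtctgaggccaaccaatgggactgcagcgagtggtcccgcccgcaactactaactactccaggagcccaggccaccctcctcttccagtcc
Acot2: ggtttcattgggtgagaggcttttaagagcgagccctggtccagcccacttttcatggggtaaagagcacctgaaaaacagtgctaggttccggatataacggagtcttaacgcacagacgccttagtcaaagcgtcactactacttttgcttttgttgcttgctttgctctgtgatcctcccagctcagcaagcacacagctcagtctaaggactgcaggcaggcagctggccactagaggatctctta
Cpt1a: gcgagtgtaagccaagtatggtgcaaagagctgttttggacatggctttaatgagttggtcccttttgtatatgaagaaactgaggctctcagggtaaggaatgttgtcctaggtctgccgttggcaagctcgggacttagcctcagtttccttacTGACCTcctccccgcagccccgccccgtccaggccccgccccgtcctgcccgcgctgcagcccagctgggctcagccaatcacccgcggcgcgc
Acadm: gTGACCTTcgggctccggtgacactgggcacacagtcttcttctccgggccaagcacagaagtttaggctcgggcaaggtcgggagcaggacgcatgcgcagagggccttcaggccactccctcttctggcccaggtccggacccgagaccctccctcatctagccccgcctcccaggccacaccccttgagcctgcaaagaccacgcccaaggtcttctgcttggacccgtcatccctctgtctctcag

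All 10 genes matched RefSeq windows of 300 bases (250 before and 50 after the start), 13 windows in all because Esrrg has 4 starts, and both strands were searched. AGGTCA, the core motif of many nuclear receptors, occurred in the windows of 2 of the 10 genes, against 18.1% of 27025 genes with RefSeq windows. It lay in Acadm near the far end of the window and in Cpt1a starting 94 bases before the start. Of 32851 RefSeq windows, 16.3% held it. AAGGTCA, which contains AGGTCA, occurred in Acadm only, against 5.38% of genes and 4.72% of windows. TNAAGGTCA, the extended site of ERRs, and the DR1 element of PPARs, a direct repeat of AGGTCA with 1 base between the copies, occurred in none of the 13 windows, against 1.28% and 0.0396% of windows. The shorter motifs were added to the search after the longer motifs had given no match, and a window of this size says nothing of sites elsewhere.

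In the macrophages of animals given neither agent the 10 genes spanned a wide range of levels. Per kb of gene length, in the vehicle PBS libraries, Cpt1a, the carnitine palmitoyltransferase at the outer mitochondrial membrane, stood highest at 143 ± 3.75 CPM per kb (SD, n = 4), at the 98.0th percentile of tested genes. The thioesterase Acot1 (39.7 ± 2.89), the long-chain acyl-CoA dehydrogenase Acadl (36.9) and Hadha, the alpha subunit of the trifunctional protein (36.1), followed with overlapping ranges. Acadm, the medium-chain acyl-CoA dehydrogenase, stood at 21.1 CPM per kb. Pdk4 (15.1), Acot2 (13.2) and Esrra (12.1) overlapped one another, and Cpt2, the inner-membrane carnitine palmitoyltransferase, was at 8.04. Esrrg came last at 0.484 CPM per kb, at percentile 8.51. This order and the percentiles hold only for the gene lengths of the deposited table, which can differ widely from the annotated transcripts. Acot1 has 1559 bases there but 3878 distinct 75-base windows in its transcripts, Cpt2 5859 against 2594 and Esrrg 16456 against 6205. The places of such genes among the others are therefore uncertain.

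**Figure D1:**
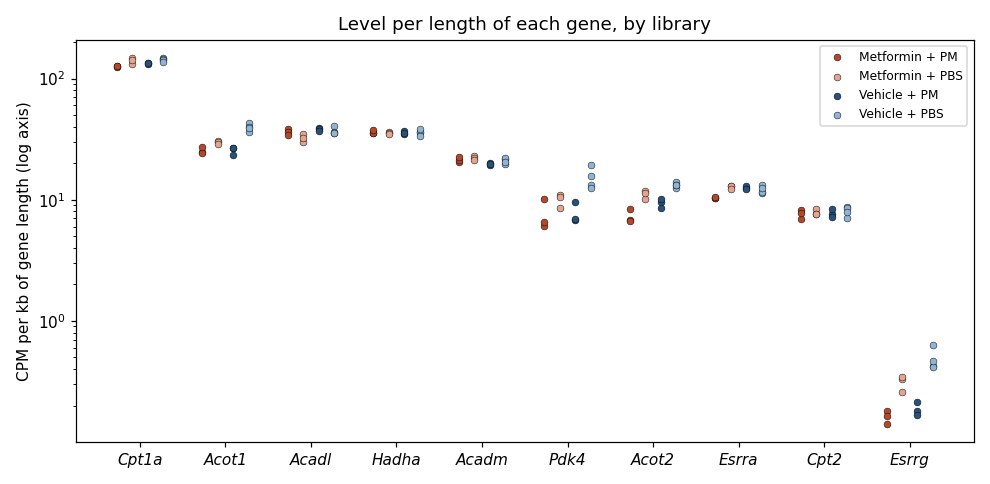
Level of each gene in CPM per kb of gene length (log axis), one point per library, with the groups side by side in the order metformin PM, metformin PBS, vehicle PM and vehicle PBS. By the lengths of the deposited table Cpt1a is highest and Esrrg lowest in every library. Where Acot1 stands against Acadl and Hadha depends on its length there, 1559 bases.

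Esrrg, which encodes ERRγ, was at 2.98, 2.68 and 2.33 CPM with metformin and PM, against 5.40, 4.30 and 5.70 CPM with metformin and PBS. With vehicle it was at 3.53, 2.95 and 2.76 CPM with PM, against 6.96, 6.89, 7.65 and 10.4 CPM with PBS. Every PM library was below every PBS library, and the metformin PBS libraries were all below the vehicle PBS libraries. Of all tested genes, 30.0% had no overlap of PM with PBS libraries under metformin and 14.9% under vehicle. Between metformin and vehicle in PBS animals the share was 13.7%. These are small counts, 15 to 25 reads per library with PM and 27 to 58 with PBS. The log2 fold change for PM against PBS was -0.93 ± 0.23 (SE) with metformin and -1.35 ± 0.20 with vehicle, a level of 0.524-fold and 0.393-fold. Metformin against vehicle gave -0.21 ± 0.26 with PM and -0.62 ± 0.19 with PBS.

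Pdk4, the pyruvate dehydrogenase kinase, was at 23.7, 25.7 and 39.5 CPM with metformin and PM, against 33.4, 42.4 and 41.4 CPM with metformin and PBS. With vehicle it was at 37.4, 26.7 and 27 CPM with PM, against 75.5, 50.9, 48.3 and 60.9 CPM with PBS. The vehicle groups did not overlap, as with 14.9% of all tested genes. With metformin the library PM 4 lay within the range of the PBS libraries. The log2 fold change for PM against PBS was -0.42 ± 0.19 with metformin and -0.95 ± 0.17 with vehicle. With metformin it was -0.67 without PM 4, -0.29 without PM 1 and -0.53 without PBS 1. Metformin against vehicle gave -0.06 ± 0.19 with PM and -0.59 ± 0.17 with PBS, the value with PM running from -0.31 without metformin PM 4 to 0.12 without vehicle PM 1. Pdk4 was the most variable of the 10 genes between libraries of one group, with a within-group SD of 0.295 on the log2 scale, against 0.203 for Esrrg and 0.05 for Hadha.

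**Figure D2:**
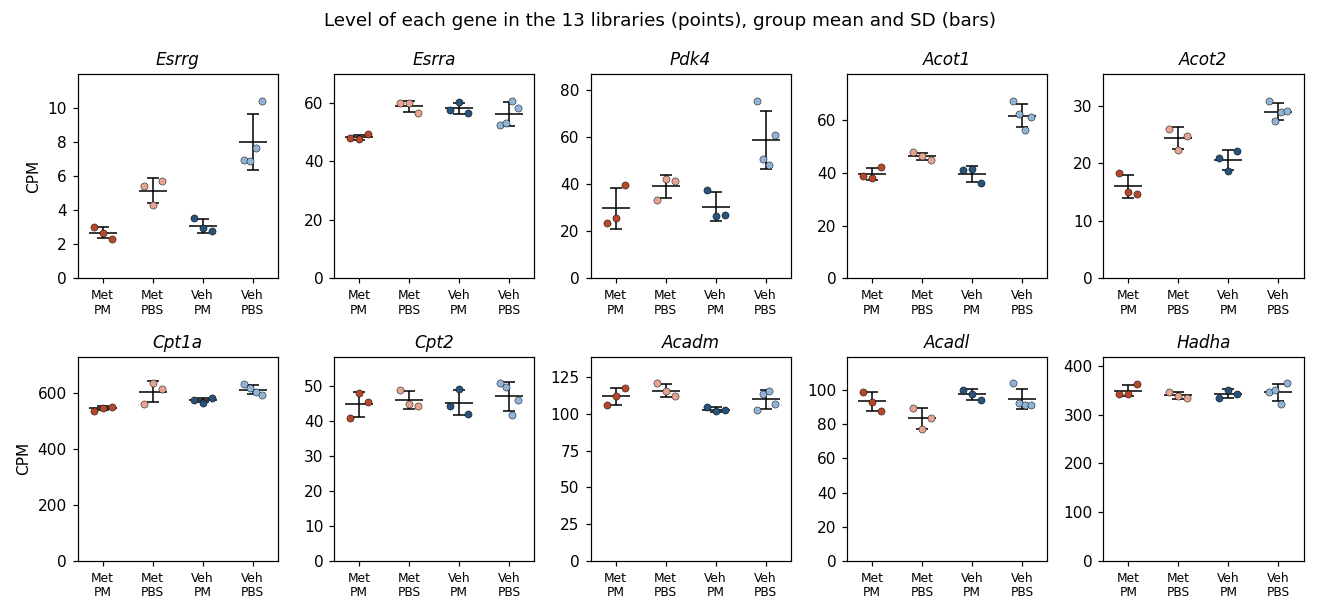
Level of each of the 10 genes in CPM in the 13 libraries (points) with the group mean and SD (lines), from left to right metformin PM, metformin PBS, vehicle PM and vehicle PBS. Esrrg, Acot1 and Acot2 have their highest libraries in the vehicle PBS group and no overlap between PM and PBS under either drinking water, while Cpt2 and Hadha overlap between all groups. Of all tested genes, 30.0% have no overlap of PM with PBS under metformin and 14.9% under vehicle.

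Acot1 and Acot2 encode the cytosolic and the mitochondrial acyl-CoA thioesterase, which split long-chain acyl-CoA into free fatty acid and coenzyme A. They are neighbours on the plus strand of chromosome 12 (mm10), Acot2 at 83987861 to 83993873 and Acot1 at 84009502 to 84017670. Acot1 was at 38.7, 38.0 and 42.2 CPM with metformin and PM, against 47.8, 46.4 and 45.1 CPM with metformin and PBS. With vehicle it was at 41.2, 41.4 and 36.3 CPM with PM, against 67.4, 62.2, 56.4 and 61.3 CPM with PBS. The PM libraries of both arms overlapped, and the PBS libraries with metformin lay between them and the PBS libraries with vehicle. Per kb of its deposited length, Acot1 was at 23.3 to 26.5 CPM with vehicle and PM and at 36.2 to 43.2 CPM with vehicle and PBS. Its level against other genes cannot be read from this, since that length is 1559 bases against 3878 distinct 75-base windows in its transcripts.

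Acot2 was at 18.4, 15.0 and 14.6 CPM with metformin and PM, against 26.0, 22.3 and 24.8 CPM with metformin and PBS. With vehicle it was at 21, 18.7 and 22.1 CPM with PM, against 30.9, 27.3, 28.9 and 29.1 CPM with PBS. The ranges of the 4 groups did not overlap, with metformin PM lowest and vehicle PBS highest. In the single comparisons 13.7% to 30.0% of all tested genes did not overlap, and the share for all 4 groups at once was not computed. The transcripts of Acot1 and Acot2 share sequence, 15.0% of the 75-base windows of Acot1 and 21.2% of those of Acot2 occurring also in another gene of the family, so a part of their reads could not be placed with certainty.

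With vehicle, 2 of the 8 genes listed for their role were called lower with PM and none higher, where 2.26% of all tested genes were called lower, 2.6% higher and 4.85% in either direction. A gene is called where its p in edgeR's quasi-likelihood test, adjusted over all 11906 genes by the Benjamini-Hochberg method, is under 0.05. Both were thioesterases. Acot1 fell by 0.64 ± 0.08 on the log2 scale (SE; adjusted p 2.17e-05), to 0.642-fold with a 95% interval of 0.575 to 0.716, and Acot2 fell by 0.49 ± 0.10 (adjusted p 0.00483), to 0.71-fold. The falls of Acot1 and Acot2 with PM were already known when the list was drawn up. The count of 2 and the p-values of these genes are therefore no independent test of the list. The other 6 were not called, with log2 fold changes of -0.09 to 0.05. For Hadha the 95% interval of the log2 fold change was -0.12 to 0.09, and for Acadl it was -0.10 to 0.18. The median over the 8 was -0.08, against -0.0013 over all tested genes.

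With metformin, 2 of the 8 were again called lower with PM, where 5.6% of tested genes were called lower, 7.18% higher and 12.8% in either direction. Acot2, whose fall with PM was already known, fell by 0.60 ± 0.11 (edgeR quasi-likelihood test, adjusted p 0.00124), to 0.66-fold. Esrra, which encodes ERRα, was at 47.8, 47.4 and 49.2 CPM with metformin and PM, against 59.9, 59.7 and 56.4 CPM with metformin and PBS. Its libraries did not overlap, as with 30.0% of all tested genes. The log2 fold change of Esrra was -0.29 ± 0.07 (adjusted p 0.0103). With vehicle Esrra was at 57.6, 60.2 and 56.3 CPM with PM and at 52.4, 53.1, 60.6 and 58.2 CPM with PBS, overlapping groups with a log2 fold change of 0.05 ± 0.07. Esrra overlaps Trmt112 on the opposite strand and the kit keeps no strand, so their counts cannot be fully told apart. Trmt112 was at 53.9 to 58.8 CPM with metformin and PM and at 50.4 to 58.6 CPM with metformin and PBS.

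Acot1 with metformin had a log2 fold change of -0.23 ± 0.08 and missed the threshold (edgeR quasi-likelihood test, adjusted p 0.0706). Its PM and PBS libraries did not overlap, as with 30.0% of all tested genes in this comparison. Cpt1a was at 538, 546 and 552 CPM with metformin and PM and at 563, 636 and 614 CPM with metformin and PBS, also without overlap and not called (log2 fold change -0.15 ± 0.05, adjusted p 0.0604). It was called without metformin PBS 1 (-0.21, adjusted p 0.00812) or without vehicle PM 2 (-0.16, adjusted p 0.0474), and also with DESeq2 (0.0383), limma-voom (0.0414), a stricter filter on low counts (0.0468) or unscaled library totals (0.0403). With vehicle, Cpt1a was at 577, 567 and 582 CPM with PM and at 632, 620, 606 and 595 CPM with PBS, a log2 fold change of -0.09 ± 0.05 (adjusted p 0.352).

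The other enzymes of the mitochondrial path kept narrow ranges over all 13 libraries. Hadha ran from 322 to 364 CPM with a median of 343, Cpt2 from 41.0 to 50.8 with a median of 45.4, Acadm from 102 to 121 with a median of 112 and Acadl from 77.3 to 104 with a median of 92.3. None of these 4 was called in any of the comparisons of PM with PBS or of metformin with vehicle. Groups that do not overlap are common among all tested genes (13.7% for metformin against vehicle in PBS animals and 26.5% in PM animals), and 2 such cases occurred here. Acadl was at 89.7, 77.3 and 83.5 CPM with metformin and PBS, below the 104, 92.3, 91.5 and 91.5 CPM with vehicle and PBS (log2 fold change -0.18 ± 0.07, edgeR quasi-likelihood test, adjusted p 0.148). Acadm was at 106, 112 and 118 CPM with metformin and PM, above the 105, 102 and 103 CPM with vehicle and PM (0.12 ± 0.06, adjusted p 0.307).

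**Figure D3:**
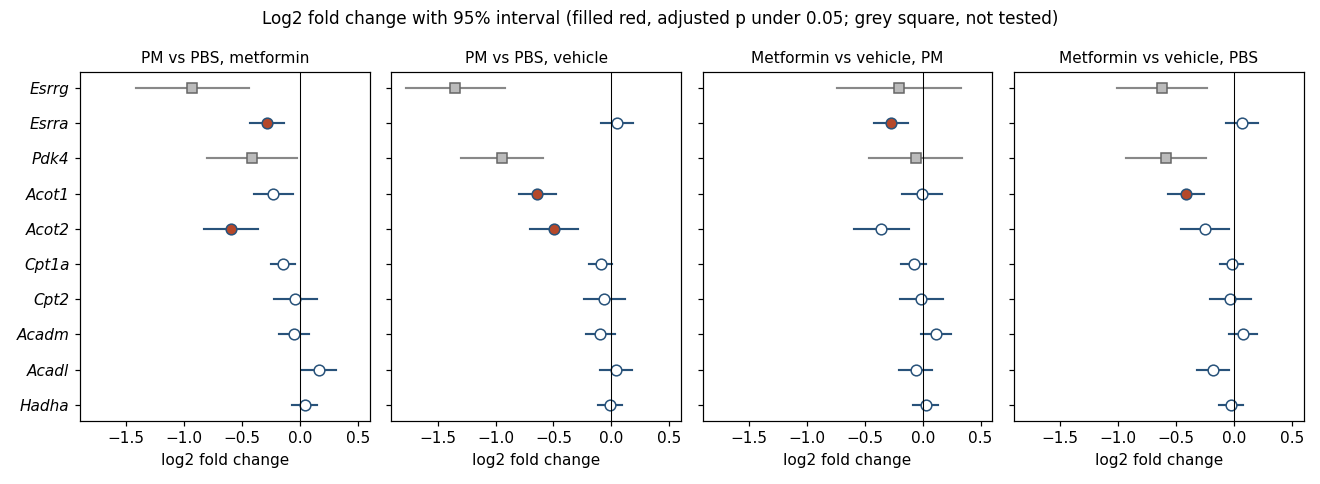
Log2 fold change of each gene in 4 comparisons with its 95% interval, filled red where the adjusted p is under 0.05 and grey squares for Esrrg and Pdk4, which were picked for their fall with PM and were not tested here. Acot2 is called in both comparisons of PM with PBS, Acot1 with vehicle, and Esrra with metformin, while Cpt2, Acadm, Acadl and Hadha are called in none of the 4.

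Metformin without particles was set against vehicle in the PBS animals, where 1 of the 8 role-listed genes was called lower and none higher, with 1.93% of tested genes called lower, 1.13% higher and 3.07% in either direction. That gene was Acot1, which fell by 0.41 ± 0.07 on the log2 scale (edgeR quasi-likelihood test, adjusted p 0.00496), to 0.751-fold. Acot2 had -0.25 ± 0.10 and was not called (adjusted p 0.175). Its metformin libraries were all below the vehicle libraries, as with 7.54% of all tested genes. This comparison shares the vehicle PBS libraries with PM against PBS under vehicle.

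In PM-exposed animals 1 of the 8, Esrra, was called lower with metformin, with 2.81% of tested genes called lower, 4.08% higher and 6.89% in either direction. Esrra had a log2 fold change of -0.27 ± 0.07 (edgeR quasi-likelihood test, adjusted p 0.0236), to 0.83-fold. The call rests on single libraries. It was lost without vehicle PM 1 (-0.28, adjusted p 0.0534), vehicle PM 2 (-0.25, 0.104), metformin PM 1 (-0.27, 0.0793) or metformin PM 3 (-0.27, 0.0722). Acot2 had -0.36 ± 0.11 (adjusted p 0.0640) and was called without metformin PM 1 (-0.48, adjusted p 0.0329). Its libraries did not overlap, as with 26.5% of all tested genes. Acot1 was not called, with a 95% interval of -0.18 to 0.17 for its log2 fold change.

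The difference of the PM effects, metformin minus vehicle, asks whether the drug changes the response to the particles. None of the 8 was called by edgeR's quasi-likelihood test, DESeq2 or limma-voom, where 1.44% of tested genes were called by edgeR (0.89% higher and 0.546% lower), and 2 of the 8, Acot1 and Esrra, had an unadjusted p under 0.05. Acot1 had a difference of 0.41 ± 0.11 on the log2 scale (adjusted p 0.0775), its PM effect being the smaller one under metformin. It was called without vehicle PBS 3 (0.45, adjusted p 0.0497). Esrra had -0.34 ± 0.10 (adjusted p 0.10), and the intervals of the others include 0, from -0.42 to 0.21 for Acot2. So the calls of Acot1 with vehicle alone and of Esrra with metformin alone do not show that the PM effects differ. For Esrrg and Pdk4 the differences were 0.42 ± 0.32 and 0.53 ± 0.25, given as a description. For Esrrg the difference was 0.27 without vehicle PBS 4 and 0.52 without vehicle PM 1, and for Pdk4 it was 0.28 without metformin PM 4 and 0.70 without vehicle PM 1.

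Averaged over PM and PBS, metformin against vehicle is nearly independent of the comparisons that picked Esrrg and Pdk4, and both were tested in it. Of the 10 genes 2 were called lower, Acot1 and Acot2, where 5.41% of tested genes were called lower and 10.8% in either direction. Acot2 had a log2 fold change of -0.30 ± 0.07 (edgeR quasi-likelihood test, adjusted p 0.0119) and Acot1 -0.21 ± 0.06 (adjusted p 0.0186). Esrrg had -0.41 ± 0.16 (adjusted p 0.103) and Pdk4 -0.33 ± 0.13 (adjusted p 0.108), neither past the threshold. Single libraries moved the borders of this result. The Acot1 call was lost without vehicle PM 1 (-0.20, adjusted p 0.0524), vehicle PM 2 (-0.19, 0.0566) or metformin PM 1 (-0.20, 0.0512), and Pdk4 was called without metformin PM 4 (-0.45, 0.0212), the library with the highest Pdk4 level of its group.

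As a description of likeness over the 13 libraries, the log2 CPM of Esrrg had its highest Pearson correlations among 10660 named genes with Hip1r (r = 0.912), Acot2 (0.91), Tle6, Ttll7 and Tecr (0.907 each). Acot1 came 11th (0.893), Pdk4 118th (0.803) and its paralog Esrra 1802nd (0.44). Pdk4 was most like Fam107b (0.919), Rfx5 (0.918), Acot1 (0.916), Sptlc1 (0.915) and Sult2b1 (0.91). Hadha had an r of -0.05 with Esrrg and of 0.12 with Pdk4. The 13 points share 4 groups, so they are not independent.

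Around the 10 genes, 8 lists with 124 genes of the same paths were read, of which 103 were tested. With vehicle, 9 of the 103 were called with PM (8.74%, against 4.85% of all tested genes), 3 higher and 6 lower. The count dropped to 3 on leaving out vehicle PBS 2 or vehicle PM 3 and to 4 on leaving out vehicle PM 2. With metformin, 13 were called (12.6%, against 12.8%), 7 higher and 6 lower, and 8 without metformin PBS 3 or metformin PM 3. Of 19 further genes of mitochondrial beta oxidation, 1 was called with vehicle, Echs1, the enoyl-CoA hydratase, and none with metformin by edgeR's quasi-likelihood test, DESeq2 or limma-voom, with 2 at an unadjusted p under 0.05. Echs1 was higher (0.25 ± 0.07, adjusted p 0.0474), and its call was lost on leaving out any 1 of 11 of the 13 libraries, at 0.21 to 0.27. It was lost also with DESeq2 (adjusted p 0.0981), upper-quartile scaling (0.0568), unscaled totals (0.0739), a stricter filter (0.0523) and a fit of the compared groups alone (0.0541). Hadhb, the beta subunit of the trifunctional protein and partner of Hadha, had log2 fold changes of -0.0047 (95% interval -0.12 to 0.11) with metformin and -0.18 ± 0.05 (adjusted p 0.0584) with vehicle.

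Of 15 tested nuclear receptors and partners, 4 were called with PM under metformin (26.7%, against 12.8% of all tested genes). None was called under vehicle by edgeR, DESeq2 or limma-voom, with 3 at an unadjusted p under 0.05, where edgeR called 4.85% of all tested genes. The difference between the arms was called for Lpin1 alone of the list (6.67%, against 1.44% of all tested genes). Lpin1, a phosphatidate phosphatase that also acts as a nuclear coactivator, averaged 658 ± 101 CPM with metformin and PM (SD, n = 3) against 467 ± 24.9 with metformin and PBS, a log2 fold change of 0.50 ± 0.08 (edgeR quasi-likelihood test, adjusted p 0.000596). Ppargc1b, the coactivator PGC-1β and a partner of ERRs, was at 6.11 to 7.31 CPM against 9.0 to 14 CPM (-0.86 ± 0.17, adjusted p 0.00203). Nrip1, a corepressor of nuclear receptors, had -0.60 ± 0.13 (adjusted p 0.00534). Pparg, the receptor on which alveolar macrophages depend, was at 228 to 262 CPM with metformin and PM against 172 to 206 CPM with metformin and PBS (0.38 ± 0.09, adjusted p 0.00549), and had 0.22 ± 0.08 with vehicle (adjusted p 0.150). Ppard had -0.09 with metformin and 0.07 with vehicle and was not called. Esrrb, Ppara and Ppargc1a had no count in any library.

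None of the other Pdk genes was called with PM in either arm. Pdk1 had log2 fold changes of -0.24 ± 0.10 with metformin and -0.13 ± 0.09 with vehicle, Pdk2 0.10 ± 0.11 and -0.27 ± 0.11, and Pdk3 0.14 ± 0.10 and 0.06 ± 0.09 (edgeR quasi-likelihood test, adjusted p 0.129 to 0.814). Of the remaining thioesterases, 7 were tested and 5 (Acot3, Acot5, Acot6, Acot10 and Acot12) had 0 to 3 counts over all libraries. Acot4, a peroxisomal thioesterase of the same cluster on chromosome 12, was at 4.34 to 4.46 CPM with metformin and PM against 6.53 to 7.55 CPM with metformin and PBS (-0.68 ± 0.20, adjusted p 0.0306). That call was lost without metformin PM 1, 3 or 4 or metformin PBS 1, 3 or 4, at -0.63 to -0.74, and with DESeq2 (-0.69, adjusted p 0.0623). With vehicle Acot4 had -0.33 ± 0.17 (adjusted p 0.364). Acot7, Acot8, Acot9, Acot11, Acot13 and Them4 were not called with PM in either arm, at -0.28 to 0.52.

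**Figure D4:**
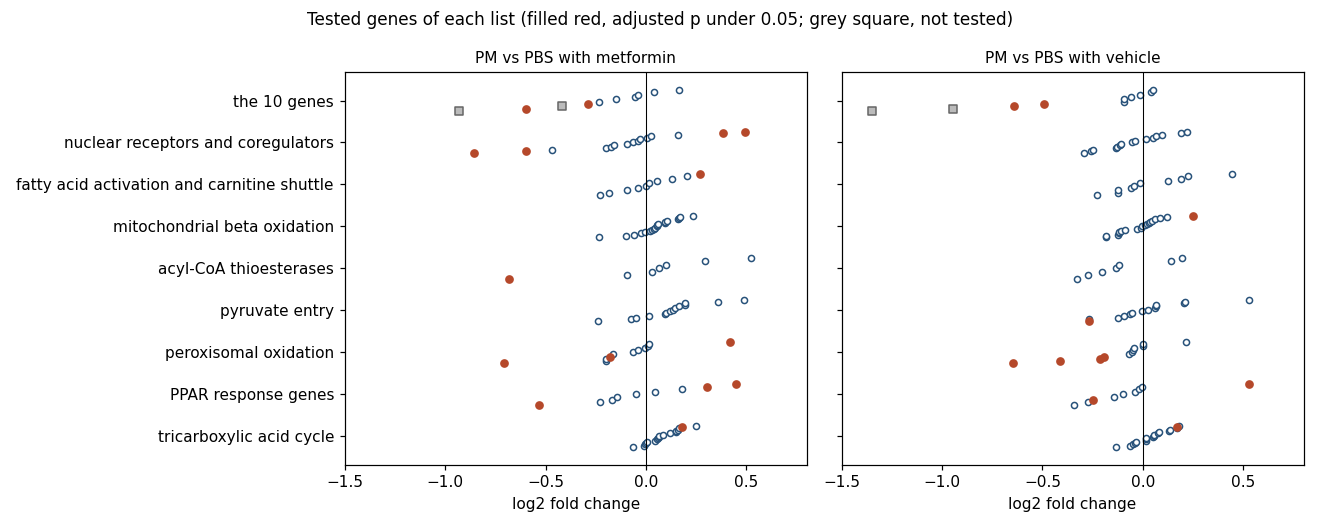
Log2 fold change for PM against PBS, with metformin (left) and with vehicle (right), of the tested genes of the 10-gene set and of 8 lists of related genes, one point per gene, filled red where the adjusted p is under 0.05 and grey squares for Esrrg and Pdk4, which were not tested. With vehicle, called genes make up 1 of 19 in mitochondrial beta oxidation (5.26%) and 1 of 18 in the tricarboxylic acid cycle (5.56%), against 4.85% of all tested genes.

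Peroxisomal oxidation was the list with the most calls with vehicle, 4 of 11 (36.4%), all lower, where 2.26% of all tested genes were called lower. Acaa1b, a peroxisomal thiolase, was at 93.3 to 123 CPM with vehicle and PM against 156 to 169 CPM with vehicle and PBS (-0.65 ± 0.09, edgeR quasi-likelihood test, adjusted p 0.000104), and Pex11a, which helps peroxisomes divide, was at 21.3 to 24.3 CPM against 28.9 to 33.4 CPM (-0.41 ± 0.10, adjusted p 0.0182). Hsd17b4 (-0.21) and Scp2 (-0.19), enzymes of the same path, were called too. Pex11a was not called without vehicle PBS 2 (-0.38) or vehicle PM 3 (-0.35), Hsd17b4 not without vehicle PBS 1, vehicle PBS 2, vehicle PM 2 or vehicle PM 3 (-0.19 to -0.21), and Scp2 not on leaving out any 1 of 9 libraries (-0.14 to -0.23). In a fit of the compared groups alone Hsd17b4 (adjusted p 0.0505) and Scp2 (0.0777) were not called, and Scp2 was not called without a filter on low counts (0.0525). With metformin 3 of 11 were called (27.3%, against 12.8% of all tested genes). Pex11a was at 13 to 14.2 CPM with PM against 18.6 to 24.8 CPM with PBS (-0.71 ± 0.12, adjusted p 0.000548), and Ehhadh, the bifunctional enzyme, was higher (0.42 ± 0.09, adjusted p 0.00324). Scp2 was called lower there as well (-0.18, adjusted p 0.0471), a call lost on leaving out any 1 of 8 libraries (-0.16 to -0.20).

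Of 9 tested genes that respond to PPARs, 2 were called with PM under vehicle (22.2%, against 4.85% of all tested genes) and 3 under metformin (33.3%, against 12.8%), in both directions. With vehicle, Fabp4, a fatty acid carrier, was at 96.2 to 116 CPM with PM against 67.4 to 86.7 CPM with PBS (0.53 ± 0.09, edgeR quasi-likelihood test, adjusted p 0.000793), and the uncoupling protein Ucp2 at 2000 to 2060 CPM against 2330 to 2470 CPM (-0.25 ± 0.05, adjusted p 0.00184). With metformin, Fabp4 was at 84.2 to 89.9 CPM with PM against 57.8 to 72.5 CPM with PBS (0.45 ± 0.10, adjusted p 0.00407). Txnip, which restrains glucose uptake, was at 444 to 538 CPM against 691 to 695 CPM (-0.53 ± 0.08, adjusted p 0.000257). Cd36, a fatty acid uptake receptor, was higher (0.31 ± 0.08, adjusted p 0.0187), but not called without metformin PBS 3, metformin PBS 4, metformin PM 3 or metformin PM 4 (0.24 to 0.29). Plin5 and Fgf21, further textbook targets, had 1 and 0 counts over all libraries.

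Between the drinking waters, 7 of the 103 genes were called in PM animals (6.8%, against 6.89% of all tested genes) and 5 in PBS animals (4.85%, against 3.07%). In PBS animals the count was 3 without metformin PBS 3 or metformin PBS 4. Pex11a was lower with metformin in both, with log2 fold changes of -0.79 ± 0.12 with PM (edgeR quasi-likelihood test, adjusted p 0.000351) and -0.50 ± 0.10 with PBS (adjusted p 0.0109, not called without metformin PBS 3, at -0.39). Lpl, the lipoprotein lipase, was lower in both as well, at 3320 to 3650 CPM with metformin and PM against 4290 to 4430 CPM with vehicle and PM (-0.34 ± 0.06, adjusted p 0.00244), and with -0.31 ± 0.06 in PBS animals (adjusted p 0.00684). In PM animals Ppargc1b was lower with metformin (-0.80 ± 0.17, adjusted p 0.00611) and Acaa1b was higher (0.48 ± 0.09, adjusted p 0.00307). In PBS animals Foxo3, one of the FOXO factors that act on Pdk4 in other tissues, was at 72.0 to 77.3 CPM with metformin against 50.8 to 67.2 CPM with vehicle (0.39 ± 0.08, adjusted p 0.00888).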

How the data were processed

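Sorted alveolar macrophages gave polyadenylated RNA for NEBNext Ultra I libraries, from 100 ng of RNA each (integrity number over 7) and read as 75 bp single ends, per the labels' protocols. Per the submitters' processing notes, bcl2fastq 2.19, TopHat2, HTSeq and edgeR were used with mm10. Annotation release and strand setting are not given in the sources used here. Per the file headers, the deposited table gives raw counts per gene, and gene coordinates (unit "other") that gave positions, overlaps and lengths.

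Counts were tested with R 4.3.3 and edgeR 4.0.16 (filterByExpr, TMM scaling, quasi-likelihood model with 1 coefficient per group over all 13 libraries, 9 residual degrees of freedom), Benjamini-Hochberg adjusted over 11906 genes within each comparison. CPM use TMM-scaled library sizes. A standard error is the log2 fold change divided by the root of the F statistic. Depth, 5.567 to 8.101 M counts per library, limits the precision for Esrrg.

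The members and lists were chosen with earlier results of these data known. Named are all members, up to 4 called genes per list with the lowest adjusted p, the PPARs, Esrrb, PGC-1 coactivators, Pdk and Acot families and Hadhb, and the 5 genes most like Esrrg and Pdk4; not all are printed. Of the named genes printed here, Esrra, Acaa1b, Acot4, Acot8, Acot11, Txnip and Rfx5 overlap another gene with 305 to 13424 counts over all libraries, on a table without stated strand. Hsd17b4, Scp2, Acadl, Hadha, Fam107b and Ehhadh overlap genes with 1 to 34 counts. Alternatives were DESeq2 1.42.0, limma-voom (limma 3.58.1), other scalings, filters, fits of the groups compared, the title number as a block, and fits without 1 library at a time. The pipeline was tested on simulated data. Reads were not analysed here.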

Additional observations from a re-analysis of the deposited data

Results flagged for a closer look

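Acadl in the vehicle PBS group, the only group of 4 and so the only one examined for a library apart, had its highest library at 104 CPM (vehicle PBS 1) against 91.5 to 92.3 CPM in the other 3. The gap was large for the range of the group. Chance gives such a gap in about 1 group in 20, and 10 genes were examined.

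The PM effect on Lpin1 differed between the drinking waters by 0.603 on the log2 scale, metformin minus vehicle (SE 0.117, edgeR quasi-likelihood test of the difference, adjusted p 0.00951). It was the 1 gene called in this comparison among the 103 tested genes of the 8 lists (0.971%, against 1.44% of all tested genes). A single call is thus no more than the share over all genes. Lpin1 stood at 577 to 771 CPM with metformin and PM, 451 to 496 CPM with metformin and PBS, 388 to 432 CPM with vehicle and PM and 402 to 479 CPM with vehicle and PBS, so that its metformin PM libraries were above all others.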

How the results depend on the processing

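Each result was recomputed with DESeq2, limma-voom, other scalings, other filters, a fit of the groups compared alone, a replicate block and without each library. For PM against PBS with vehicle 2 of the 8 role-listed genes were called under all of these, Acot1 and Acot2, whose falls were already known. For metformin against vehicle in PBS animals 1 was called under all of them. For PM against PBS with metformin the count was 2 to 3 without single libraries and 4 without scaling of library totals, with Acot1 (adjusted p 0.0478) and Cpt1a (0.0403) added. Cpt1a was called also with DESeq2 (0.0383), limma-voom (0.0414) and the stricter filter (0.0468). For metformin against vehicle in PM animals it was 0 to 1 without single libraries and 0 with the replicate block, where Esrra had -0.279 (adjusted p 0.0715). For the difference it was 0 to 1, and for the averaged metformin effect 1 to 3 of the 10 genes, the third being Pdk4. In that average, Pdk4 was called without a filter on low counts (-0.328, adjusted p 6.84e-05) and with the replicate block (-0.431, 0.0484), which lost Acot1 (-0.197, 0.0677). The causes were not tested.

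Signs turned for values near 0. For metformin against vehicle in PM animals Acot1 was 0.00128 under the stricter filter and 0.00752 with the replicate block, and Cpt2 0.0415 with that block. In PBS animals Cpt2 was 0.00519 with the block. Without single libraries, Acot1 ran from -0.07 to 0.024, Cpt2 from -0.0728 to 0.0489 and Hadha from -0.00273 to 0.0429 for metformin in PM animals, and Pdk4, untested there, from -0.306 to 0.118. For metformin in PBS animals Cpt1a ran from -0.0559 to 0.0325, Cpt2 from -0.0901 to 0.0046 and Hadha from -0.058 to 0.000517. For PM with vehicle Hadha ran from -0.045 to 0.0134, for PM with metformin Cpt2 from -0.104 to 0.0129, and for the difference Cpt2 from -0.043 to 0.0802 and Acadm from -0.000527 to 0.0724.

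Over all genes, calls for PM with vehicle were 578, but 359 without vehicle PM 2. For PM with metformin they were 1522, but 884 without metformin PM 3, 895 without metformin PBS 3 and 964 without metformin PBS 4. For metformin in PBS animals they were 365, but 813 without a filter (404 higher, 409 lower, against 135 and 230), 200 with only the groups compared, 151 or 215 without vehicle PBS 1 or 2 and 121 without metformin PBS 4. For metformin in PM animals they were 820, but 535 with the replicate block, 419 without vehicle PM 2 and 431 without metformin PM 1. For the difference they were 171, but 507 without a filter, 262 without vehicle PBS 4 and 113 without metformin PBS 4. For the averaged effect they were 1288, and 729 with the block. Called pathway genes for metformin in PM animals were 7, but 13 without a filter and 11 with only the groups compared, and for the difference 1, but 5 without a filter.

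Title numbers gave no clear sign of pairing, but so few libraries per group cannot exclude it. The deviations of 16 same-numbered pairs from their group means correlated at -0.102 to 0.116, 1 of them over 0.1, and 6 of 13 libraries correlated best with one of their own number. Depth limits Esrrg most, at 15 to 58 reads per library.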
